A study of Mus musculus with 4 samples.

Results

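The genes described here write, read and erase DNA methylation: Dnmt1, Uhrf1, Dnmt3a, Dnmt3b, Mbd2, Tet1, Tet2, Tet3 and Tdg. They are taken by symbol, with no measured value in the rule, and are 9 of the 55536 annotated genes of the tables. All 9 were found, each with counts in every library. PolyA-selected RNA of regulatory T cells (Treg) that had experienced inflammation was sequenced in 4 libraries. Treg are CD4 T cells that hold back immune responses and depend on the transcription factor Foxp3. The labels give a male adult mouse of 6 months, strain Foxp3CreERT2 x Rosa26YFP, and call the cells primary cells of bone marrow hematopoietic origin. By its name the strain carries a tamoxifen-inducible Cre under Foxp3 and a fluorescent reporter in Rosa26, and the labels mention no injection, diet or other agent. The libraries are technical replicates 1 to 4 of 1 biological replicate and are called libraries 1 to 4 here. No other group exists in these data, so no condition was compared, and each SD or p-value below covers only the spread between libraries of 1 animal.

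Methyl groups on cytosine are copied after each DNA replication by Dnmt1, which Uhrf1 brings to hemimethylated CpG sites, and new ones are set by Dnmt3a and Dnmt3b. The Tet enzymes oxidise 5-methylcytosine, Tdg cuts out the further oxidised bases, and Mbd2 binds methylated CpG and brings in repressor complexes. In mouse Treg an intronic enhancer of Foxp3 is kept free of methylation, and Tet2, Tet3 and Mbd2 are known to be needed for that state.

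Several of these genes have more than a single start of transcription, and the products differ at their first coding base. The starts of Dnmt1 and Dnmt3a are therefore shown with the 250 bases before them, 5′ to 3′ on the gene's strand, from RefSeq on GRCm38.p6. Capitals mark CG dinucleotides, which read the same on both strands. The window before Dnmt1-201 is chr9:20952980-20953229 and that before the upstream start of Dnmt1-202 is chr9:20959889-20960138, both on the minus strand. The window of the long Dnmt3a form is chr12:3806730-3806979, whose RefSeq start lies 50 bases from that of Dnmt3a-201, and the window of the internal start of Dnmt3a-203 is chr12:3891494-3891743, both on the plus strand.
Dnmt1-201 start: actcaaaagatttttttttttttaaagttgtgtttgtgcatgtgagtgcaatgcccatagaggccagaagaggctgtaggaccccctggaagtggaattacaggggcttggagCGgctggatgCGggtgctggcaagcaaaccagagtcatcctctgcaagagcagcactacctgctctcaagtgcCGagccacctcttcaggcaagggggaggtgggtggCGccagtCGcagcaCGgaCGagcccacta
Dnmt1-202 start: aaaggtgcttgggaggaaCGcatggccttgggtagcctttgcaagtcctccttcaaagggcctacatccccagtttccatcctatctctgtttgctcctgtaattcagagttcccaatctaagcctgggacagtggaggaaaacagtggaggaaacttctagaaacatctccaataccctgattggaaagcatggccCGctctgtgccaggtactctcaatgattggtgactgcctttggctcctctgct
Dnmt3a-201 start: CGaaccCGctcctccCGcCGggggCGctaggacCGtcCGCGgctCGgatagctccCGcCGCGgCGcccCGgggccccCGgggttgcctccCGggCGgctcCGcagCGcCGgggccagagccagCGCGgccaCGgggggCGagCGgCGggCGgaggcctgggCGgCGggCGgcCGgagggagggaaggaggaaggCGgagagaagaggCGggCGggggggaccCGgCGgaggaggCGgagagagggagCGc
Dnmt3a-203 start: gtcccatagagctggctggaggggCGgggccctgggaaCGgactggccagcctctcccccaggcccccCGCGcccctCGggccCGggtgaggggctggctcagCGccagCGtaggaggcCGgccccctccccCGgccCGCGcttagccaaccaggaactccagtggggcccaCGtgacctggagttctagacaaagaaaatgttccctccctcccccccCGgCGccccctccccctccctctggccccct
The window of the upstream Dnmt1 start held 2 CG and that of Dnmt1-201 held 7, while a window at a further start, that of Dnmt1-203, held 26. Of the bases in that Dnmt1-203 window, 166 are exon bases of Dnmt1 transcripts. The Dnmt3a windows shown held 38 CG at the long form and 15 at the internal start. A further Dnmt3a window, at the start of Dnmt3a-218, held 40 CG and overlaps that of the long form. Across all 32851 promoter windows of this length the median was 6 CG, with quartiles of 2 and 16, and 92.1% of windows held at least 1. Windows were matched for 8 of the 9 genes, 13 in all, with a median of 19 CG. The Tet2 window held 51 CG, more than in 99.9% of all windows, and no other of the 13 held as many.

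The coding sequences show how the products of these starts differ. The first 48 coding bases follow, with the start codon in capitals, from the GENCODE M21 transcripts.
Dnmt1-201 coding start, chr9:20952740-20952787, minus strand: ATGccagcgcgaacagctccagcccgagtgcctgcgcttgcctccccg
Dnmt1-202 coding start, chr9:20941407-20941454, minus strand: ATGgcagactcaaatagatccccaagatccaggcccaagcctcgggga
Dnmt3a-201 coding start, chr12:3835198-3835245, plus strand: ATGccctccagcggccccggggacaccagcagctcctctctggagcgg
Dnmt3a-203 coding start, chr12:3895573-3895620, plus strand: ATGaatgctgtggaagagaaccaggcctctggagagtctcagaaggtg
Tet3-203 coding start, chr6:83455005-83455052, minus strand: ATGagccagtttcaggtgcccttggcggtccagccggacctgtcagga
Tet3-202 coding start, chr6:83404732-83404779, minus strand: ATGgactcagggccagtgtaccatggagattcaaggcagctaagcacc
The start codon of Dnmt1-202 lies inside the reading frame of Dnmt1-201 after 118 codons, and the products have 1501 and 1620 codons. The 689 codons of Dnmt3a-203 are the last 689 of the 908 of Dnmt3a-201, so that product lacks the first 219. Likewise the 1668 codons of Tet3-202 are the end of the 1803 codons of Tet3-203. As background, mouse oocytes use an upstream Dnmt1 start that gives a shorter protein, the short Dnmt3a form is known as Dnmt3a2, and the CXXC domain of Tet3 is carried by its long form. The last sequence shown is the stretch of Dnmt3b that separates its main products, with 21 bases on either side in lower case. The 189 bases in capitals, 63 codons in frame, lie between chr2:153683609 and chr2:153686258 on the plus strand, are present in Dnmt3b-209 and are missing from Dnmt3b-206.
Dnmt3b-209: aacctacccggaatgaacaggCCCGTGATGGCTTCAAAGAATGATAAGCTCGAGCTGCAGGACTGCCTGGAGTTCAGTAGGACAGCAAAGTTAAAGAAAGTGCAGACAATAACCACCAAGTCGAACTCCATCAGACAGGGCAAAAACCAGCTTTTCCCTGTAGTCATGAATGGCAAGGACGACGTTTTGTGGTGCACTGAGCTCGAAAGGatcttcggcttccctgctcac
Dnmt3b-206: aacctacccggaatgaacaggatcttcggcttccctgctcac
Forms of Dnmt3b that lack this stretch, such as Dnmt3b3, are known to be catalytically inactive.

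Depth in the main gene table was 9284432, 9341328, 9325636 and 6648385 expected counts from library 1 to library 4. Treg markers were present: Foxp3, the lineage factor, stood at 20.3, 21.7, 32.8 and 36.4 TPM (transcript counts per length, scaled to 1000000 per library), all 8 Treg markers reached 1 TPM in every library, and Cd4 averaged 410 TPM. Of 6 stem and progenitor markers, 1 reached 1 TPM in every library, Gata2 had no count, and their sum was 2.05 to 3.63 TPM per library. Markers of other blood cells were present at uneven levels. The 7 B cell markers summed to 1438, 1096, 1251 and 857 TPM in libraries 1 to 4, 8 myeloid markers to 44.5, 11.9, 5.90 and 20.9, and 8 erythroid markers to 1069, 4.79, 38.6 and 17.9. Library 1 was thus the highest for all 3 of these sums. In bulk RNA, fewer cells of a type and less RNA per cell cannot be told apart, for these markers and for the genes below. A set of 18 replication and mitosis genes was present in full at 1 TPM or more and summed to 590, 584, 605 and 574 TPM in libraries 1 to 4, with Pcna, the replication clamp, the highest at 110 ± 9.84 TPM (SD, n = 4). Mcm6 and Mcm4, subunits of the replicative helicase, followed at 73.8 ± 12.7 and 56.5 ± 11.3 TPM, and Ccna2, Cdc45 and Mki67 were the lowest at 2.16, 4.57 and 5.18 TPM. The even sum covered members that differed between libraries, and 15 of the 18 were called by the count test described below, against 68.4% of all genes. Mcm4 stood at 70.1, 61.1, 49.6 and 45.1 TPM in libraries 1 to 4, highest in library 1. The mitotic gene Birc5, chosen as Mcm4's contrast after its values were seen, stood at 10.9, 14.6, 17.9 and 25.9 TPM, highest in library 4. Of 6 T cell markers all reached 1 TPM in every library.

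The maintenance methyltransferase Dnmt1 was present at 47.2, 31.6, 31.1 and 32.0 TPM in libraries 1 to 4, with a mean of 35.5 ± 7.84 (SD, n = 4). Library 1 stood above the other three, which lay within 1 TPM of each other. Without library 1 the mean was 31.6 TPM. Behind these levels were 1595, 1121, 904 and 778 expected counts, the most of any gene of the group on average. Summed over full-length coding transcripts, defined below, Dnmt1 was at 42.7, 26.7, 20.8 and 26.9 TPM. By that sum library 1 was again the highest, but the other libraries were less even. Its partner Uhrf1 was lower, at 10.4, 12.4, 7.29 and 9.84 TPM, a mean of 9.99 ± 2.12 (SD, n = 4) on 152 to 238 counts. By gene TPM, library 2 was the highest for Uhrf1 and library 3 the lowest. The log2 ratio of Uhrf1 over Dnmt1 by gene TPM was -1.82 ± 0.38 (SD, n = 4) and negative in 4 of 4 libraries. Over full-length coding transcripts Uhrf1 was at 10.1, 7.64, 6.36 and 8.33 TPM, highest in library 1 and again lowest in library 3.

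The de novo methyltransferase Dnmt3a was found at 16.4, 12.5, 18.0 and 18.5 TPM, a mean of 16.4 ± 2.74 (SD, n = 4), with library 2 the lowest. Dnmt3b, the other de novo enzyme, was the lowest of the 9 genes, at 2.72, 3.45, 3.62 and 4.50 TPM, a mean of 3.57 ± 0.731 on only 72 to 109 counts per library. The ranges of the pair did not overlap, and the log2 ratio of Dnmt3a over Dnmt3b was 2.17 ± 0.32 (SD, n = 4). Dnmt1 exceeded Dnmt3a in every library, by 1.10 ± 0.38 on the log2 scale in the main table. By gene total in the table made from the reads, Dnmt3a, at 24.9 and 22.7 TPM in libraries 3 and 4, was above Dnmt1, at 19.9 and 21.3 TPM. The ratio there was 0.24 ± 0.67 (SD, n = 4). Over full-length coding transcripts only, defined below, Dnmt1 was the higher in each library of that table. It stood at 20.3, 12.5, 10.4 and 13.7 TPM, and Dnmt3a at 6.95, 4.98, 6.03 and 7.11 TPM. Dnmt3l, the catalytically inactive partner of the de novo enzymes, had no count in any library of the main table, and neither had Dnmt3c, a rodent relative of Dnmt3b.

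Mbd2, the reader in this set, was at 32.1, 24.0, 35.1 and 42.1 TPM, a mean of 33.3 ± 7.50 (SD, n = 4), highest in library 4 and lowest in library 2. It overlapped with Dnmt1 and was the higher of the pair in 2 of 4 libraries. It rested on 224 to 329 counts per library, fewer than Tet2 or Dnmt1 at a like level. The effective length of its full coding transcript was 1782 bases, against 9008 for that of Tet2.

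Among the dioxygenases, Tet2 was the highest at 41.9, 39.3, 48.5 and 44.8 TPM, a mean of 43.6 ± 3.94 (SD, n = 4), and the highest of all 9 genes by this measure. Tet3 followed at 12.9, 10.4, 14.7 and 16.9 TPM, a mean of 13.7 ± 2.76, and Tet1 was at 7.20, 4.06, 6.43 and 5.62 TPM, a mean of 5.83 ± 1.34. The 3 ranges did not overlap. The log2 ratios were 2.91 ± 0.30 for Tet2 over Tet1, 1.68 ± 0.21 for Tet2 over Tet3 and 1.23 ± 0.31 for Tet3 over Tet1 (SD, n = 4). The order held in each library, but the distances rest on which transcripts are counted, as set out below. Tdg, the glycosylase downstream of the Tet enzymes, was at 13.4, 9.51, 12.5 and 9.84 TPM, a mean of 11.3 ± 1.92 (SD, n = 4), with libraries 1 and 3 above libraries 2 and 4.

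**Figure D1:**
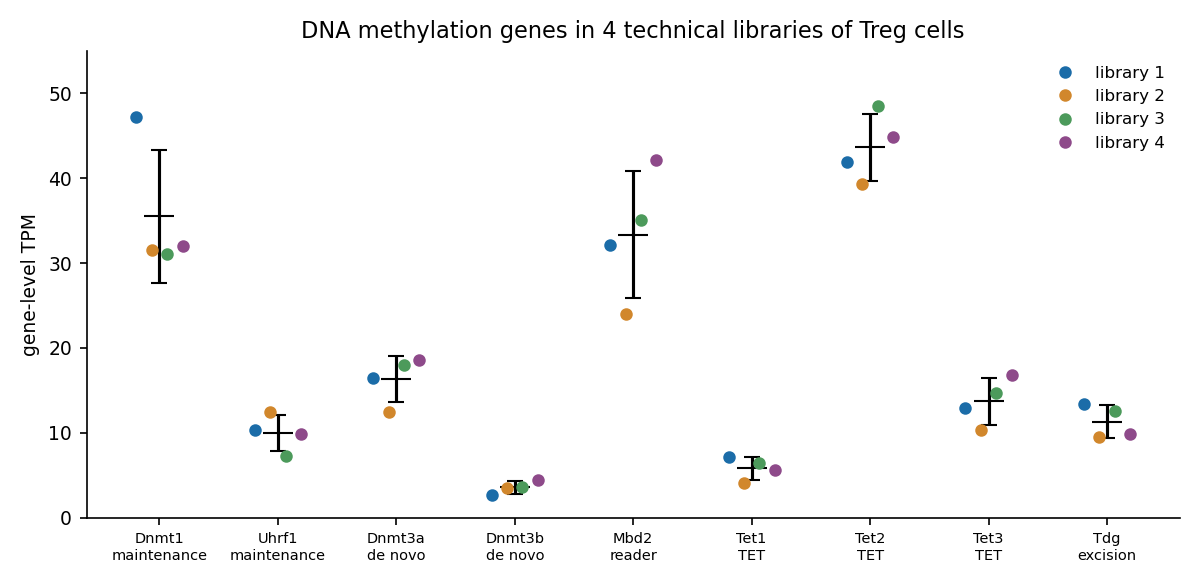
Gene-level TPM (vertical axis) of the 9 genes in each of 4 technical libraries (coloured points), with the mean as a horizontal bar and the SD as whiskers. Tet2 (39.3 to 48.5), Dnmt1 (31.1 to 47.2) and Mbd2 (24.0 to 42.1) lie above the other 6 genes, and library 1 stands apart for Dnmt1.

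By mean TPM the order was Tet2, Dnmt1, Mbd2, Dnmt3a, Tet3, Tdg, Uhrf1, Tet1 and Dnmt3b. Among the 9953 nuclear protein-coding genes at 1 TPM or more in all libraries, Tet2 stood at percentile 70.7, Dnmt3a at 44.2 and Dnmt3b at 10.5. Tet2 was above Dnmt1 in 3 of 4 libraries and Dnmt1 above Mbd2 in 2 of 4, so neither pair separated beyond its spread. Tet2 was above Mbd2 in every library, most narrowly in library 4, at 44.8 and 42.1 TPM. The step from Mbd2 to Dnmt3a was 1.01 ± 0.11 in log2 and held in 4 of 4 libraries. Dnmt3a exceeded Tet3 by 0.26 ± 0.09 in log2, again in 4 of 4. Tet3, Tdg and Uhrf1 did not separate from each other beyond their spread. Uhrf1 over Tet1 and Tet1 over Dnmt3b had the same sign in 4 of 4 libraries, at 0.77 ± 0.60 and 0.68 ± 0.53 in log2. For each of the 6 pairs of like role the two-sided exact sign-flip permutation test gave p = 0.125, and 0.125 after adjustment over the 6 pairs, which is the smallest p that 4 libraries allow.

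Part of this order came from transcripts that hold no complete reading frame. Transcripts were called full-length coding when they are annotated as protein-coding with at least 70% of the gene's longest coding length. They held 17.9 ± 4.29% of the TPM of Tet1, 24.1 ± 1.05% of that of Tet2 and 56.9 ± 7.41% of that of Mbd2 (SD, n = 4). For the other 6 genes the share was 73.2 to 88.6%, against a median of 76.4% over 9953 genes. Full-length transcripts held far more of the expected counts, 72.0 ± 5.03% for Tet1, 64.7 ± 5.30% for Tet2 and 84.2 ± 4.08% for Mbd2, beside 91.9 to 98.1% for the other 6 genes and a median of 89.2% over all. TPM divides counts by effective length, so a few fragments on a short transcript weigh more in it than in counts.

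**Figure D2:**
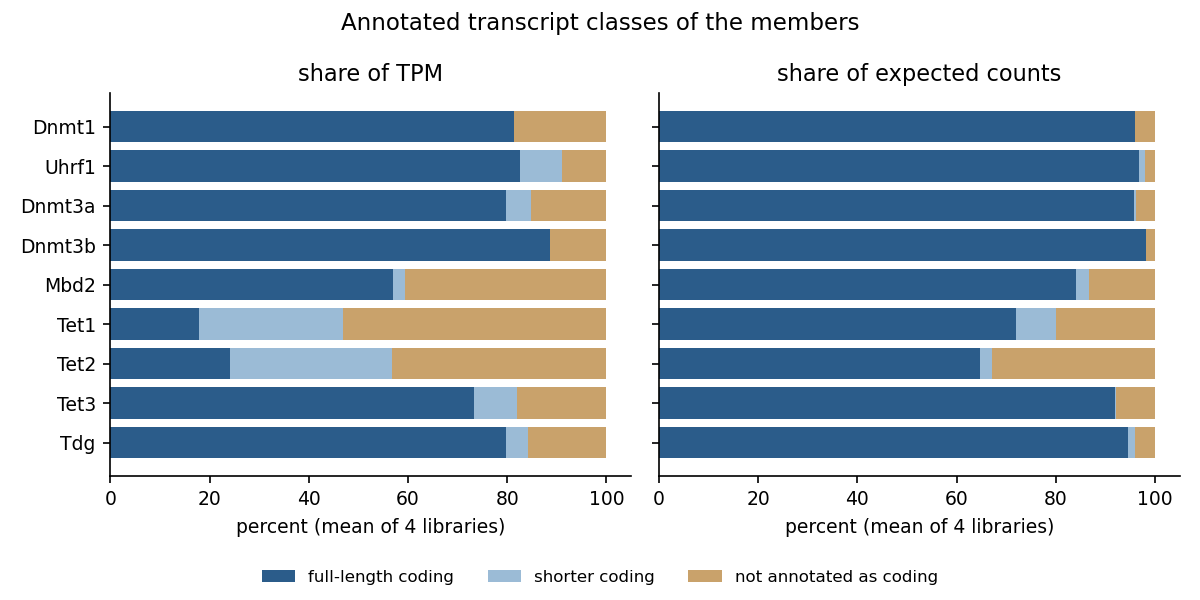
Share of each gene's TPM (left) and of its expected counts (right), in percent as the mean of 4 libraries, held by full-length coding transcripts (dark blue), shorter coding transcripts (light blue) and transcripts not annotated as coding (brown). Tet1 and Tet2 have 17.9% and 24.1% of TPM in full-length transcripts, but 72.0% and 64.7% of counts.

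Tet2 shows this most plainly. Tet2-205, a coding fragment of 423 bases with an effective length of 253 bases, had 44.7, 38.9, 23.7 and 23.5% of the gene's TPM in libraries 1 to 4, on 33.8, 30.1, 22.0 and 14.5 counts. Tet2-201, which encodes the whole enzyme of 1912 codons over an effective length of 9008 bases, had 24.6, 24.4, 24.7 and 22.5% of TPM but 492 to 823 counts. The retained-intron transcript Tet2-210 had 14.4, 20.6, 28.7 and 32.7% of TPM. Thus Tet2-205 was the higher of these short forms in libraries 1 and 2 and Tet2-210 in libraries 3 and 4, while Tet2-201 stayed near the same share. In the table made from the reads, Tet2-205 had 29.8, 26.8, 18.0 and 14.2% and Tet2-210 had 20.9, 28.2, 33.1 and 37.3%. Summed over full-length transcripts only, Tet2 was at 10.3, 9.59, 12.0 and 10.1 TPM and no longer above Tet3, at 10.4, 7.33, 11.2 and 11.1 TPM. The log2 ratio of Tet2 over Tet3 was then 0.08 ± 0.22 (SD, n = 4), with Tet2 higher in 2 of 4 libraries. In the table made from the reads the same sum was 5.64, 5.31, 5.79 and 5.71 TPM for Tet2, and 4.93, 3.50, 5.13 and 5.57 TPM for Tet3. There Tet2 was the higher in 4 of 4 libraries, so the tables differ on this order. This way of summing was chosen after the shares had been seen.

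For Tet1, the noncoding Tet1-202 had 48.3, 59.9, 48.8 and 46.6% of TPM, and the full enzyme Tet1-206, of 2039 codons, 17.2 ± 4.70% (SD, n = 4). By counts the order was the other way, with 94.5 counts on average for Tet1-206 and 27.3 for Tet1-202. Full-length Tet1 was at 0.94, 0.95, 1.08 and 1.03 TPM, a mean of 1.00 ± 0.0668 (SD, n = 4). On this scale Tet1 was the lowest of the 9 genes, below Dnmt3b in 4 of 4 libraries, and Tet3 exceeded it by 3.18 in log2, not by 1.23. The spread between libraries also narrowed, since the gene total ranged over 4.06 to 7.20 TPM.

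The Tet3 reads lay mostly on Tet3-202, the shorter product of 1668 codons shown above. It held 68.4 ± 3.71% of the gene's TPM and 88.6% of its counts, and has 5669 exon bases of its own. These lie at the 3′ end, where Tet3-202 runs on to chr6:83362373 and Tet3-203 stops at chr6:83368042. They therefore do not tell the coding starts apart, and their part in the shares of the products was not tested. The longer Tet3-203 had 52.2, 15.0, 25.9 and 12.1 counts in libraries 1 to 4. Of full-length coding TPM it held 12.3, 4.50, 5.28 and 3.51%, and 10.4, 3.93, 5.09 and 3.48% in the table made from the reads. Library 1 was the highest in both.

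Dnmt1-201 was the leading Dnmt1 transcript, with 62.1 ± 7.71% of TPM and 73.4 ± 5.37% of counts (SD, n = 4). Transcripts of the 1501-codon product, Dnmt1-202 and Dnmt1-203, together held 19.0, 28.2, 16.5 and 30.1% of full-length coding TPM in libraries 1 to 4, and 18.6, 26.2, 20.0 and 28.4% in the table made from the reads. Libraries 2 and 4 were above libraries 1 and 3 in both tables. The mean was 23.4 ± 6.72% and 23.3 ± 4.73% (SD, n = 4). Which of the 2 transcripts carries it is less sure: Dnmt1-202, from the upstream start with 2 CG before it, had 15.4, 23.8, 2.64 and 23.4% of gene TPM, 200 counts on average with a posterior SD of 67.1. It has 156 exon bases of its own, and Dnmt1-203 has 18. A retained-intron transcript, Dnmt1-206, had 5.82% of gene TPM in the main table and 30.0% in the other.

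For Dnmt3a the transcript of the 908-codon product, Dnmt3a-201, led with 68.3 ± 12.0% of TPM and 87.4 ± 6.16% of counts (SD, n = 4). The short product of 689 codons, from the internal start, held 3.24, 20.2, 12.4 and 22.4% of full-length coding TPM in libraries 1 to 4, but 0, 0, 1.64 and 6.61% in the table made from the reads. The tables thus differ on whether it was present beyond a trace: 64.6 counts on average in the main table and 10.7 in the other. Dnmt3a-203 has no exon base of its own, but that comparison included Dnmt3a-205, which encodes the same 689 codons. Bases that set the short product apart from Dnmt3a-201 were not counted. The share is an estimate, and the counts of Dnmt3a-203 in the main table had a posterior SD of 19.3 on average. Partial Dnmt3a transcripts, Dnmt3a-210 first among them, held 38.0% of gene TPM in the table made from the reads and 5.11% in the main table.

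The forms of Dnmt3b differed between libraries and tables, on the 72 to 109 counts per library given above. Its 10 full-length transcripts have no exon base of their own, and the leading Dnmt3b-209 had 35.4, 34.4, 24.8 and 14.4% of gene TPM. Transcripts without the stretch of 189 bases shown above held 64.6, 26.3, 44.9 and 44.5% of full-length coding TPM in libraries 1 to 4, on 46.9, 27.8, 39.6 and 29.8 counts. In the table made from the reads these shares were 44.2, 10.4 and 38.8% in libraries 1 to 3 and 1.84e-06%, in effect none, in library 4. Forms with the stretch were present in every library of both tables, at 35.4% of full-length coding TPM or more. Uhrf1 was split between products of 782 and 774 codons that differ by 24 bases in frame: the shorter had 37.7, 0, 50.5 and 46.0% of full-length coding TPM, and 37.9, 33.0, 42.6 and 34.2% in the table made from the reads. The 0 of library 2 was therefore not shared by the second table.

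**Figure D3:**
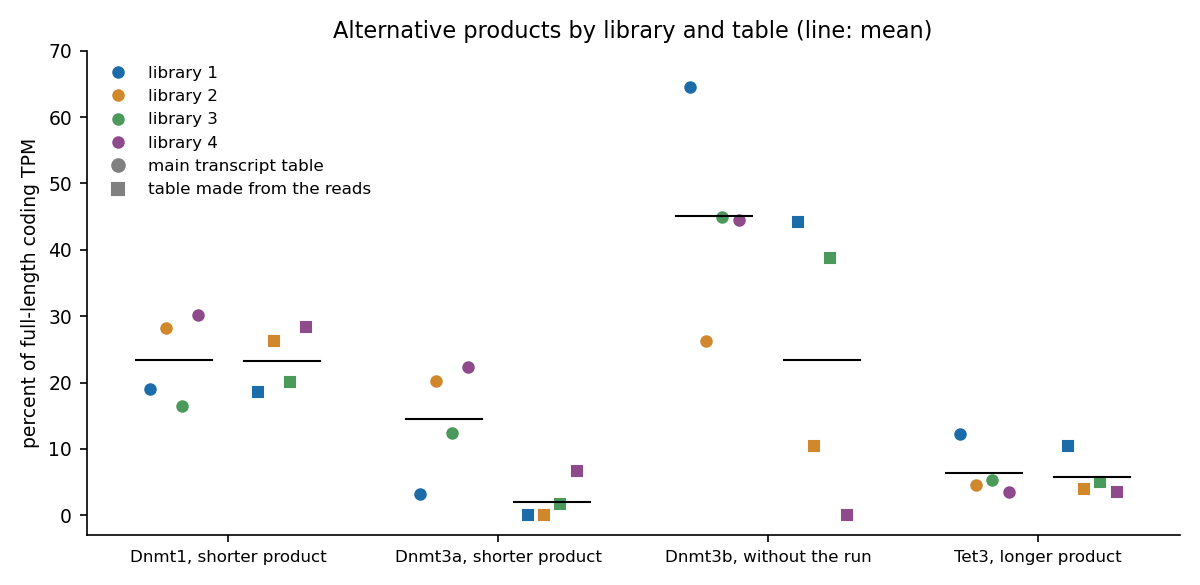
Percent of full-length coding TPM (vertical axis) held by the 1501-codon product of Dnmt1, the 689-codon product of Dnmt3a, the Dnmt3b forms without the 189-base stretch and the 1803-codon product of Tet3, in each library (colours), for the main transcript table (circles) and the table made from the reads (squares); lines are means. The tables lie close for Dnmt1 (23.4% and 23.3%) and Tet3, and apart for Dnmt3a (14.5% and 2.06%) and Dnmt3b (45.1% and 23.4%).

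Mbd2-201, the full coding form of 414 codons, had 47.1, 57.3, 58.2 and 65.1% of the gene's TPM, and the retained-intron transcript Mbd2-204 had 40.4, 34.8, 23.2 and 19.8% on 14.7 to 29.9 counts. Full-length Mbd2 was accordingly at 15.1, 13.7, 20.4 and 27.4 TPM, still highest in library 4. Tdg-201, of 397 codons, led with 69.3 ± 9.05% of TPM, and Tdg-208, whose reading frame starts 24 codons earlier, had 10.4, 24.0, 3.60 and 4.17%. Over all 9 genes, the leading transcript by TPM also led by counts for 7, Tet1 and Tet2 being the others, and led in the table made from the reads for 8, all but Tet2.

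The remaining transcripts with at least 5% of a gene's TPM in either table are given by their mean percent of gene TPM, first in the main table and then in the table made from the reads. Uhrf1 rested on Uhrf1-204, at 38.0% and 54.3%, Uhrf1-203, at 29.8% and 30.4%, and Uhrf1-201, at 14.8% and 0.224%, of which the first and last encode 782 codons and the other 774. Its short or noncoding Uhrf1-205, Uhrf1-206 and Uhrf1-207 held 3.75, 5.13 and 8.50% in the main table. Full-length Dnmt3b forms also included Dnmt3b-201, at 8.91% and 2.55%, Dnmt3b-203, at 12.5% and 8.69%, and Dnmt3b-205, at 14.4% and 0.366%, while Dnmt3b-207 and Dnmt3b-210 were at 0 in the main table and at 9.29% and 6.63% in the other. The retained-intron transcripts Dnmt3b-211 and Dnmt3b-212 had 6.61% and 4.78% in the main table, on 1.01 and 0.50 counts on average. For Dnmt3a, the retained-intron Dnmt3a-202 had 11.2% and 6.46%, and the short Dnmt3a-209, Dnmt3a-211 and Dnmt3a-216 had 1.35, 3.76 and 2.10% in the main table but 9.91, 6.75 and 13.8% in the other. Tet1-205, a coding fragment, had 23.8% and 27.6% of Tet1 TPM, and Tet1-203 had 5.17% and 5.26%. Tet2-209, a retained-intron transcript of 6362 exon bases, had 9.83% and 8.67% of Tet2 TPM and 18.1% of Tet2 counts, and Tet2-202 had 3.36% and 5.56% of TPM. Tet3-201, noncoding, had 8.54% and 21.7%, Tet3-205 had 9.43% and 8.99%, and Tet3-204 had 8.78% in the main table and 0 in the other. The noncoding Dnmt1-204 had 12.8% and 5.18% of Dnmt1 TPM, Mbd2-205 and Mbd2-203 had 8.88% and 2.10% of Mbd2 TPM in the main table, and Tdg-205, Tdg-202 and Tdg-204 had 9.40, 2.84 and 1.56% of Tdg TPM there.

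Levels also depended on the table. In the whole-number gene counts on the older GENCODE M4 annotation, divided by length, Dnmt1 was first at 58.2 ± 16.7 on a scale with the same total as TPM, then Tet2 at 37.6 ± 3.98 and Mbd2 at 33.3 ± 9.49 (SD, n = 4). Dnmt3a, Tet3 and Tdg were lower there than in the main table by 1.19, 0.99 and 1.51 in log2, at percentiles 10.4, 13.5 and 6.92 of the same difference over 9765 genes, whose median was 0.05. Dnmt1 was higher by 0.70, at percentile 89.9. Tet3 and Tet1 were then level, 7.05 ± 2.15 and 6.46 ± 0.515, a log2 ratio of 0.06. The length used for these counts was each gene's mean effective length in the main table. That length moves with how the main table deals counts out over transcripts, so these levels are not independent of it. In the table made from the reads the median gene was lower by 0.87 in log2, whereas Dnmt3a was higher by 0.18, at percentile 97.9, beside the partial transcripts above. Dnmt1, Tet2 and Mbd2 were the 3 highest genes by gene total in all 3 tables, in a different order in each. Among full-length transcripts Dnmt1 was first and Tet1 last in both transcript tables.

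**Figure D4:**
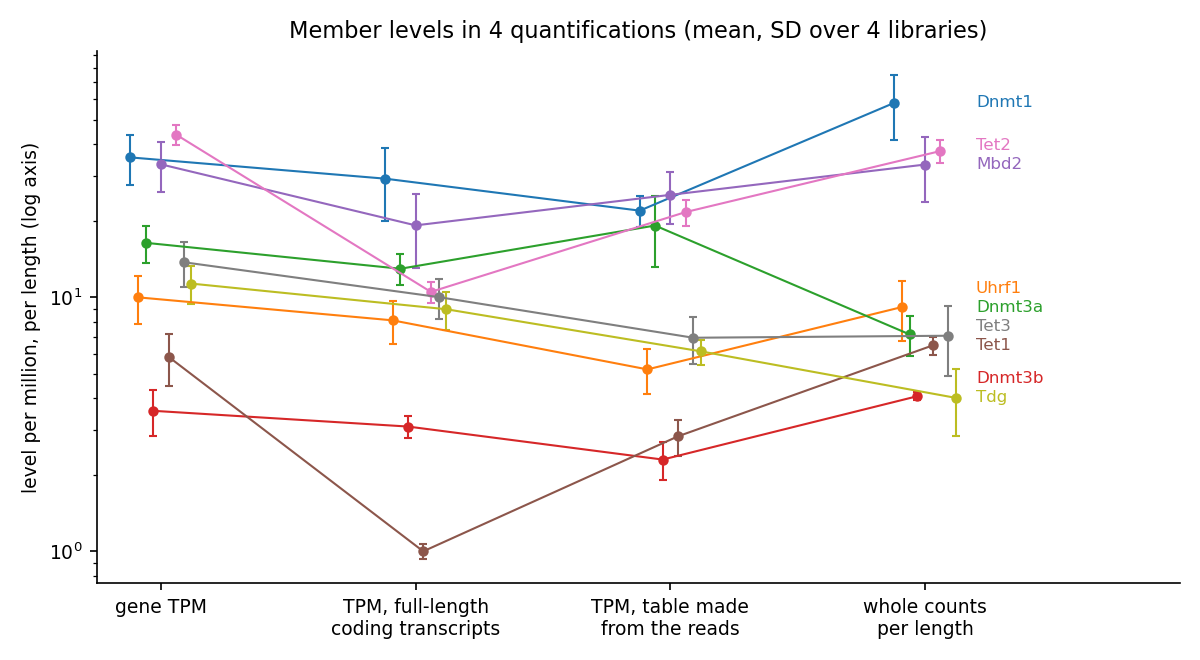
Mean level on the TPM scale (log axis) of each gene in 4 quantifications, with the SD over 4 libraries as whiskers; lines join the values of a gene. Tet2 falls to 10.5 and Tet1 to 1.00 when only full-length coding transcripts of the main table are summed, and Dnmt3a, Tet3 and Tdg are lower by whole counts per length.

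Counts were compared between libraries with a Poisson likelihood ratio test on scaled library sizes, which asks only whether libraries differ beyond counting noise. Of 13045 genes tested, 68.4% were called at an adjusted p under 0.05, and 7 of the 9 genes here were called, near that background. The median SD of log2 CPM (counts per 1000000 of scaled library size) was 0.21 for the 9 genes and 0.25 for all, and none of the 9 spanned 2-fold. Dnmt1 spanned the most, at 176, 126, 92.9 and 113 CPM in libraries 1 to 4, 1.90-fold from lowest to highest (adjusted p = 2.36e-55, Poisson likelihood ratio test with Benjamini-Hochberg adjustment). Library 1 was the highest and library 3 the lowest. Library 1 also had the highest erythroid, B cell and myeloid marker sums given above, with 1 of 8 erythroid, 6 of 7 B cell and 1 of 8 myeloid markers at 1 TPM or more in every library, and Slc4a1 at 0 in libraries 2 and 3. Their part in the Dnmt1 level was not tested, and without library 1 Dnmt1 spanned 1.36-fold and was still called (adjusted p = 2.49e-10, same test).

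Mbd2 counts ran the other way, at 26.9, 25.2, 33.8 and 43.8 CPM, with libraries 3 and 4 above libraries 1 and 2 (adjusted p = 5.52e-10, Poisson likelihood ratio test). A list of 7 CD8 and cytotoxic markers summed to 148, 130, 161 and 208 TPM in libraries 1 to 4, the same order of libraries as for Mbd2. Nkg7, a cytotoxic granule protein, made up most of it at 117, 108, 144 and 186 TPM, 3 of the 7 reached 1 TPM in every library, and Ncr1 was at 0 in libraries 2 and 4. The order of the sum was that of Nkg7, and the other markers did not follow it. Prf1 was at 8.9, 9.23, 4.02 and 5.8 TPM in libraries 1 to 4, and Cd8b1 at 14.2, 9.2, 11.4 and 11.8. The part of these markers in the Mbd2 level was not tested. Uhrf1 stood at 26.3, 24.1, 16.6 and 22.1 CPM, lowest in library 3 as Dnmt1 was (adjusted p = 0.000116, same test). That call rested on library 3, since without it Uhrf1 spanned 1.19-fold with an adjusted p of 0.300. Tdg was called at 26.1, 22.0, 20.0 and 19.3 CPM (adjusted p = 0.0232, same test), but not without library 1 (0.558). Dnmt3a, Tet2 and Tet3 spanned 1.28 to 1.37-fold. Dnmt3b, at 8.18, 12.3, 9.66 and 10.5 CPM, was not called (adjusted p = 0.0729, same test), though it was without library 3 (0.0409).

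Tet1 was the steadiest of the group in the main table, at 16.0, 15.4, 16.3 and 15.9 CPM, 1.06-fold from lowest to highest (adjusted p = 0.972, Poisson likelihood ratio test). Its SD of 0.03 in log2 CPM was below the 0.12 that counting alone gives and lay at percentile 0.429 of all genes tested. Its TPM, at 4.06 to 7.20, spanned more, since that value also moves with how the counts are dealt out over transcripts of different length. By counts in the other tables Tet1 spanned 1.11-fold in the M4 counts and 1.158-fold in the table made from the reads. In the latter Tet2 spanned less, at 1.155-fold.

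**Figure D5:**
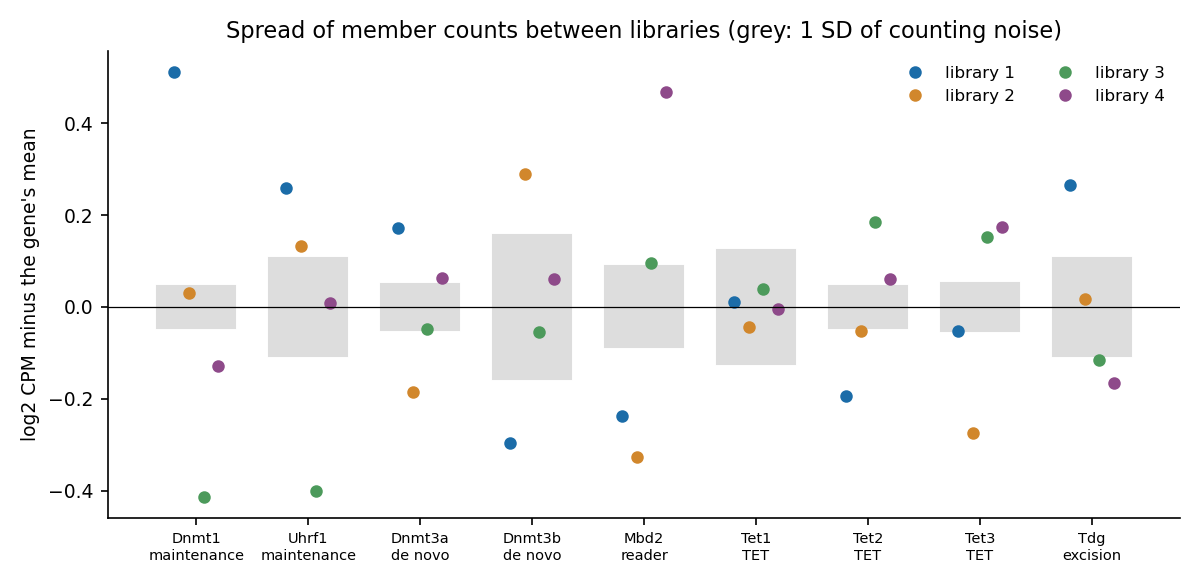
Difference of log2 CPM from the gene's mean over libraries (vertical axis) for each gene and library, with the SD that counting noise gives as a grey band. Dnmt1 in library 1 and Mbd2 in library 4 lie farthest above, and the 4 Tet1 values lie inside the band.

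The other genes of the pathway were nearly all present. Of 33 listed genes, 30 reached 1 TPM in all 4 libraries, as did 9953 of 22015 nuclear protein-coding genes, or 45.2%. At 10 TPM in all 4 libraries there were 19 listed genes, beside 28.1% of the protein-coding genes. The median over all 33 was 17.9 TPM. Over all protein-coding genes it was 0.648, and over those at 1 TPM or more it was 20.1. The highest were Mat2a, which makes the methyl donor S-adenosylmethionine, at 179 ± 19.0 TPM, Ogt, the O-GlcNAc transferase that binds Tet proteins, at 157 ± 34.2, and Apex1, the endonuclease of base excision repair, at 76.3 ± 5.40 (SD, n = 4). Then came the methyl-CpG binding proteins Zbtb38 at 55.3 ± 3.36 and Mbd1 at 52.1 ± 9.61. The lowest were Dnmt3l without a count, Cxxc4 at 0.03 TPM on 3 counts in all, and Zbtb33 (Kaiso) at 1.25 ± 0.180. Of the 31 tested between libraries 27 were called, against 68.4% of all genes. Dnmt1, Tet2 and Mbd2 were thus below Mat2a, Ogt and Apex1, and Dnmt3a, Tet3, Tdg, Uhrf1, Tet1 and Dnmt3b were below the list's median.

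For each of the 9 genes the protein-coding gene nearest in log2(TPM + 1) over the 4 libraries was found by Euclidean distance, a measure of like level rather than of shared function. These were Edc4 for Dnmt1 (distance 0.11), Dsn1 for Uhrf1, Xpr1 for Dnmt3a, Zfp867 for Dnmt3b, Fcho2 for Mbd2, Wdr81 for Tet1, Zmiz2 for Tet2, Taok1 for Tet3 (0.06) and Fam20b for Tdg. None of the 9 was among the 100 nearest of another. Near-identical copies and overlapping genes held few counts: Tdg-ps, a processed pseudogene of Tdg, had 5.02 to 18.6 counts per library, Glt8d2, opposite Tdg, 1 to 12.3, and Dnmt3aos, antisense to Dnmt3a, 2 to 4. The strand setting is not given in the sources used here, so reads of Glt8d2 and Dnmt3aos cannot be told from those of Tdg and Dnmt3a where they overlap. The part of Tdg-ps and Glt8d2 in the difference of the Tdg level between tables, given above, was not tested.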

How the data were processed

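PolyA-selected RNA was measured in 4 technical libraries of 1 biosample, grouped by the labels. The genes and gene lists were chosen with earlier results of these data known. The main deposited gene and transcript tables hold expected counts, TPM and, per transcript, the percent of the gene's TPM, per the file headers, and were made from transcriptome alignments to mm10 (GENCODE M21), according to notes that the submitters left with the files. A second deposited transcript table holds estimated counts and TPM made from the reads and an M21 index, per those notes. A deposited M4 table gives whole-number counts for each gene, from a genome alignment, per those notes. Programs and strand settings: not given in the sources used here.

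Depth was 6648385 to 9341328 expected counts per library, and rows outside the annotation (0.133 to 0.504%) were left out. TPM values carry no interval of their own, so errors are SDs over libraries. M4 counts were matched for 22195 of 22457 genes, divided by the mean M21 effective length (at least 50 bp) and scaled to the TPM total of the matched genes. Ratios used TPM + 0.1, so a low gene's ratio is drawn towards 0. Before testing, expected counts were rounded, scaled by TMM (edgeR 4.0.16, R 4.3.3) and tested per gene with a Poisson likelihood ratio chi-square between libraries. Genes needed 10 counts on average, and p-values were adjusted by Benjamini-Hochberg, with 0.05 as the threshold. This test leaves no degrees of freedom between animals. It was tested on simulated data first. Alternatives used DESeq2 1.42.0 size factors, no filter, the other tables, another pseudocount, and each library left out. Named were all 9 genes, transcripts of at least 5% of a gene's TPM in either transcript table (48 of 85; those compared by coding product were added after seeing the data), the 5 highest and 3 lowest related genes, the 3 highest and 3 lowest replication and mitosis genes, and each gene's nearest neighbour. Promoter windows are RefSeq, GRCm38.p6. The scripts ran under Python 3.11.15 with pandas 2.3.3, numpy 2.4.6, matplotlib 3.10.9 and scipy 1.17.1.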

Additional observations from a re-analysis of the deposited data

Results flagged for a closer look

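Of 81 groups of 4 library values, 9 had a library set apart from the other three by Dixon's criterion. Chance flags about 1 in 20 independent groups, but these are not independent: the full-length share of Tet2 and the share of Tet2-201 are the same values, and for 3 groups the others are at 0, which sets the library apart by construction. Dnmt1 was at 47.2 TPM in library 1, against 31.1 to 32.0 in the others. Full-length Tdg was at 11.3 TPM in library 1, against 8.08 to 8.25 in the others, while the full-length share of Tdg TPM was 66.0% in library 3, against 83.8 to 85.1%. The full-length share of Tet2, held by Tet2-201, was 22.5% in library 4, against 24.4 to 24.7%, a small step on a very even share. Tet1-202 had 59.9% of Tet1 TPM in library 2, against 46.6 to 48.8%. For 3 transcripts the remaining libraries were at 0: Tet1-203 with 20.7% of Tet1 TPM in library 3, Dnmt3b-212 with 19.1% of Dnmt3b TPM in library 4, and Tdg-204 with 6.24% of Tdg TPM in library 3.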

How the results depend on the processing

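Raising the threshold to 10 TPM in all libraries left 19 of the 33 related genes, against 30 at 1 TPM. No log2 ratio changed sign on average under an alternative. The count of called genes was 8911 with DESeq2 size factors, 9580 of 25782 without a filter, 8532 of 10877 in the M4 counts, 10823 of 17357 in the table made from the reads and 7108 to 8132 with a library left out, and 6 or 7 of the 9 genes were called under each. With a library left out, 30 or 31 related genes reached 1 TPM, and the ratios ranged over -1.98 to -1.70 for Uhrf1 over Dnmt1, 0.97 to 1.21 for Dnmt1 over Dnmt3a and 1.60 to 1.77 for Tet2 over Tet3. By gene total, Dnmt1 over Dnmt3a was 2.99 in the M4 counts and 0.24 in the table made from the reads, where it was below 0 in libraries 3 and 4. Over full-length transcripts of that table Dnmt1 was above Dnmt3a in each library, as given above. Dnmt3a over Dnmt3b was 0.78 in the M4 counts. The cause of these differences was not tested. All 9 gene levels moved by more than 1 SD with TPM taken over coding genes and with the table made from the reads, both of which also shift the scale of all genes, 6 of 9 did with full-length transcripts and 5 of 9 with the M4 counts. Of leading-transcript shares 18 moved by more than 1 SD and 8 did not. No level or share did with a library left out. Tet1-202 is noncoding and has no share among coding transcripts. No paired analysis was possible because there is 1 group. Dnmt3b, Tet1, Uhrf1 and Tdg had under 250 counts per library each; how far depth and how far sequence shared between transcripts limits their forms was not tested.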
